A study of Monodelphis domestica with 7 samples.

Results

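THBS1 (ENSMODG00000000679) and THBS2 (ENSMODG00000005780), the genes of thrombospondin 1 and thrombospondin 2, were taken by their identifiers from a table of 21314 genes measured in spinal cord of Monodelphis domestica, the gray short-tailed opossum, whose pups are born very immature. These 2 genes were chosen by their measured counts, since after transection at P28 THBS1 was higher and THBS2 lower than in the control, so their levels at that age are given below as a description and without a test. The P7 comparison was not used to choose them, and it was tested.

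Thrombospondins are secreted glycoproteins that bind to cells and to the extracellular matrix and modify how cells respond to it, rather than serving as structural fibres. THBS1 is stored in platelet granules and can activate latent TGF-beta, and THBS1 and THBS2 inhibit the growth of blood vessels through receptors that include CD36 and CD47. In the developing central nervous system they are released by immature astrocytes and promote the formation of synapses. THBS2 also takes part in the clearance of matrix metalloproteinases and in collagen fibre assembly.

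Cords were cut completely at thoracic level 10 in pups aged P7 or P28, and the segment rostral to the cut was collected 24 h later, together with the same segment of uninjured cords at P8 or P29. No transgene was used, and the only agent given was the anaesthetic isofluorane, which injured pups received during surgery. Pups of both sexes entered. P7 control pups came from litters other than the injured ones. The study does not state whether they were anaesthetised at the time of surgery, so at P7 anaesthesia may go with injury. At P28 the controls were usually anaesthetised littermates. Each library held RNA pooled from 2 individuals, and there were 2 libraries of P8 control cords, 2 of P7+24h injured cords, 1 of P29 control cords and 2 of P28+24h injured cords. Replicate 1 of each group was sequenced in run 1 and replicate 2 in run 2, from cords collected separately, so run and collection cannot be told apart, and the only P29 control belongs to run 1.

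The libraries held between 3332232 and 6256074 counts on genes, and the run 2 libraries were the deeper ones. Levels are given as CPM, the number of reads on the gene for every 1000000 reads of the library after scaling by the TMM method, and 95% intervals on single libraries are exact Poisson intervals that cover counting error only. Of the oligodendrocyte markers set out for the check of the tissue, 2 of 5 are used here (MBP and MAG), and their summed level lay between 38.8 and 187 CPM in the P8 control and P7+24h libraries and between 17800 and 28300 CPM in those of the older animals. No neuronal or astrocyte marker could be matched. In bulk tissue, fewer cells of a type and less RNA per cell cannot be told apart.

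THBS1 was a gene of low abundance at every age. The P8 control libraries had 34 counts in run 1 and 24 in run 2, which is 8.41 CPM (95% interval 5.82 to 11.8) and 3.95 CPM (2.53 to 5.88). The P7+24h injured libraries had 32 and 51 counts, or 8.39 CPM (5.74 to 11.9) and 7.62 CPM (5.67 to 10.0). The single P29 control had 11 counts, 3.16 CPM (1.58 to 5.65), and the P28+24h injured libraries had 16 and 88 counts, 5.64 CPM (3.23 to 9.16) and 14.3 CPM (11.4 to 17.6). The P29 control was therefore the lowest library and the run 2 injured cord at P28+24h the highest, while the run 1 injured cord of that age lay within the range of the P8 controls. In order, the group levels were 3.16 CPM in the P29 control (n = 1), 6.18 ± 3.15 CPM (SD, n = 2) in the P8 controls, 8.00 ± 0.55 CPM (SD, n = 2) at P7+24h and 9.94 ± 6.08 CPM (SD, n = 2) at P28+24h. No neighbours in this order were apart by more than the spread of their libraries or, for the P29 control, the counting interval.

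THBS2 differed between the ages far more than THBS1 did. At P8 the control libraries had 5 counts in run 1 and 23 in run 2, that is 1.24 CPM (95% interval 0.401 to 2.88) and 3.79 CPM (2.40 to 5.68). At P7+24h there were 4 and 40 counts, or 1.05 CPM (0.286 to 2.69) and 5.97 CPM (4.27 to 8.13). The P29 control had 97 counts, 27.8 CPM (22.6 to 34.0), and the P28+24h injured libraries had 28 and 73 counts, 9.87 CPM (6.56 to 14.3) and 11.8 CPM (9.26 to 14.9). Every library of the older animals was above every library of the younger ones, and among the older ones the injured libraries were both below the control. In order, the group levels ran from 2.51 ± 1.80 CPM (SD, n = 2) in the P8 controls and 3.51 ± 3.48 CPM (SD, n = 2) at P7+24h, which overlapped, to 10.9 ± 1.38 CPM (SD, n = 2) at P28+24h and 27.8 CPM in the P29 control. The P28+24h libraries lay above those of P7+24h. The gap between P28+24h and the P29 control follows from how the gene was chosen, and with 1 control library its spread between animals is unknown.

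**Figure D1:**
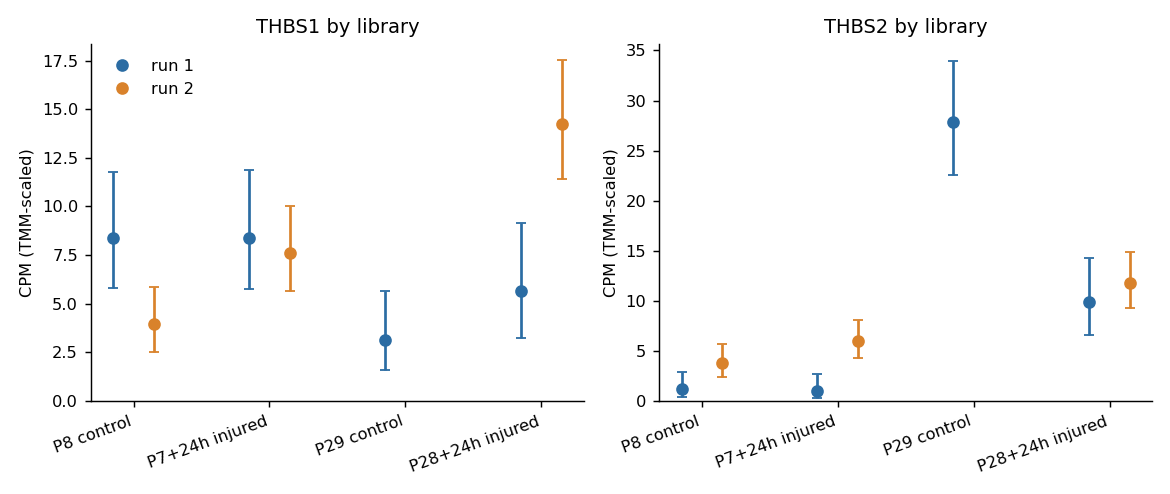
THBS1 (left) and THBS2 (right) in each library, in TMM-scaled CPM, by group on the horizontal axis, with run 1 in blue and run 2 in orange; bars are exact 95% Poisson intervals of the count. THBS1 is highest in the run 2 library at P28+24h (14.3 CPM) and THBS2 in the P29 control (27.8 CPM), and THBS2 is higher in run 2 than in run 1 at P8 and P7+24h.

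The first question was whether either gene responded to the cut at P7, the age from which axons grow back across the lesion. Neither was found to. THBS1 had a log2 change from P8 control to P7+24h of 0.39 (standard error 0.59, 95% interval -1.07 to 1.84), with an adjusted p of 1 in edgeR's quasi-likelihood test over 13534 genes, and 0.42 (standard error 0.46, interval -0.59 to 1.43, adjusted p = 1) when the run was added as a block. For THBS2 the log2 change was 0.50 (standard error 0.84, interval -1.56 to 2.56, adjusted p = 1) without the block and 0.51 (standard error 0.50, interval -0.59 to 1.61, adjusted p = 1) with it, in the same test. Without the block the intervals include changes of 2-fold in either direction. With it they include a rise of 2-fold for either gene and leave out a fall of that size. With a call defined as a change of 2-fold or more whose adjusted p was below 0.05, 0% of the genes tested were called without the block (69 had an unadjusted p below 0.05, and edgeR's exact test called 4 and DESeq2 2) and 0.0148% with it.

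The ratio of injured to control cord at P7 was also taken within each run, and its difference between the runs was not tested. In run 1 the level of THBS1 after injury divided by that of the control was 0.999 (exact 95% interval 0.597 to 1.67, counting error only), and in run 2 the ratio was 1.93 (1.17 to 3.28). THBS2 gave ratios of 0.849 (0.168 to 3.94) in run 1 and 1.58 (0.922 to 2.76) in run 2. Both genes were thus level or slightly lower after injury in run 1 and higher in run 2, where only 2.01% of all tested genes had a higher log2 change than THBS1 and 4.23% a higher one than THBS2. The higher THBS1 ratio in run 2 goes with a lower control (3.95 CPM against 8.41 CPM in run 1), since the injured libraries of the runs differed little.

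After injury at P28, THBS1 was higher and THBS2 lower than in the P29 control, which is the contrast that selected them. The fitted log2 change of THBS1 was 1.68 (standard error 0.82) without the run block and 1.73 (standard error 0.74) with it. For THBS2 it was -1.35 (standard error 0.90) and -1.98 (standard error 0.47). At this age 0% of the 13534 genes were called without the block (edgeR's quasi-likelihood test gave 157 an unadjusted p below 0.05, the exact test called 3 and DESeq2 0) and 0.754% with it.

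The higher THBS1 level after injury at P28 rested mostly on the run 2 library. Within run 1, where injured and control cords can be compared directly, 16 counts stood against 11, a ratio of 1.79 with an exact 95% interval of 0.779 to 4.26 that includes no change. The run 2 injured library set against the run 1 control gave 4.51 (2.40 to 9.37), and that value contains the difference between runs as well as the injury. Without the run 2 injured library the fitted log2 change of THBS1 was 0.77. No run 2 control of this age was analysed here, so injury and run cannot be told apart for that library.

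The lower THBS2 level was of like size in either injured library. Both comparisons use the same single P29 control, so they are not independent of each other. In run 1 the control was higher than the injured cord by a factor of 2.82 (exact 95% interval 1.84 to 4.46), and against the run 2 injured cord by 2.36 (1.72 to 3.24). The value for the run 2 injured cord contains the difference between runs as well as the injury. In run 1, 1.57% of all tested genes had a lower log2 change than THBS2, whereas 11.2% had a higher one than THBS1. These shares come from the contrast that chose the genes, so they cannot show how unusual either change is. THBS2 was higher in run 2 than in run 1 in every group that had both runs, and its fitted change at P28 lay further from 0 with the block than without it.

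**Figure D2:**
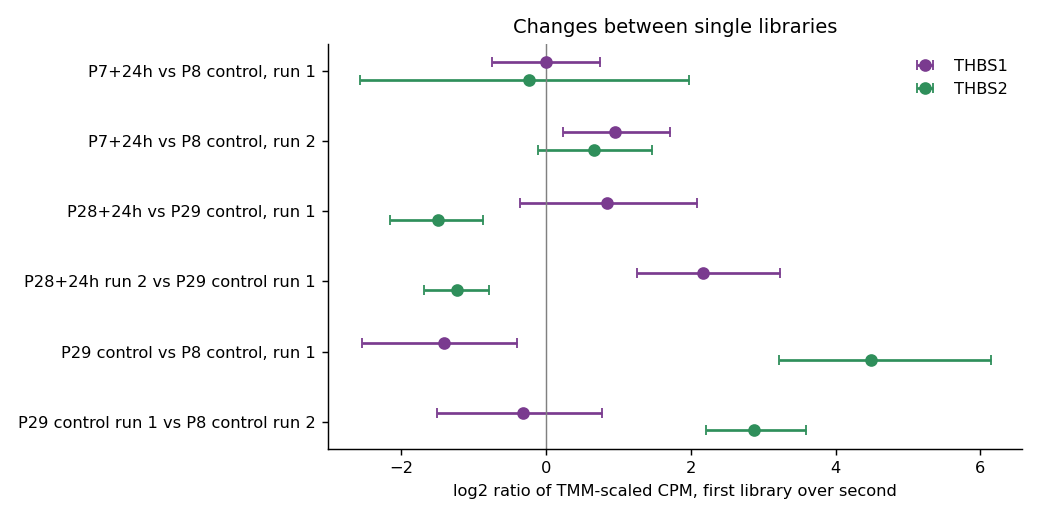
Log2 ratio of TMM-scaled CPM between pairs of single libraries, named on the vertical axis, for THBS1 (purple) and THBS2 (green); bars are exact 95% intervals of the count ratio and cover counting error only. At P28+24h the THBS2 ratios are below 0 with either injured library, and the interval of THBS1 within run 1 (ratio 1.79) crosses 0.

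In uninjured cords, THBS2 was higher at P29 than at P8. The P29 control had 97 counts of THBS2 against 5 in the P8 control of the same run, a ratio of 22.5 (exact 95% interval 9.33 to 70.9), and against the run 2 P8 control the ratio was 7.36 (4.63 to 12.1). Among all tested genes 0.761% had a higher log2 change between the run 1 controls. THBS1 was on the other side, as it was higher at P8 than at P29 by a factor of 2.66 (1.32 to 5.82) in run 1, and by 1.25 (0.59 to 2.83) when the run 2 P8 control was used. The fitted log2 changes from P8 to P29 control were 3.41 (standard error 0.94) for THBS2 and -0.95 (standard error 0.81) for THBS1, and 4.06 (standard error 0.52) and -0.87 (standard error 0.75) with the run block. Of the 13534 genes 1.79% were called in this comparison without the block and 21.4% with it. The P29 control also stands in the contrast that chose the genes, where it was the low point of THBS1 and the high point of THBS2, so these age changes are descriptive as well. Scaling by library size alone moved the median log2 change of all genes in this comparison from -0.03 to -0.33, and that of THBS1 to -1.24.

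The injured cords can be compared between ages without that control. THBS2 was higher at P28+24h than at P7+24h, with a ratio of 9.41 (exact 95% interval 3.29 to 36.9) in run 1 and 1.98 (1.33 to 2.99) in run 2. For THBS1 the ratios were 0.672 (0.344 to 1.26) and 1.87 (1.31 to 2.70), so that its direction was not the same in the 2 runs. The P28+24h libraries were among those that chose the genes, and no test was made.

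The ratio of THBS1 to THBS2 counts within a library does not depend on how that library was scaled. On the log2 scale the run 1 libraries had 2.77 in the P8 control and 3.00 at P7+24h, and the run 2 libraries 0.06 and 0.35. In the P29 control it was -3.14, and at P28+24h -0.81 in run 1 and 0.27 in run 2. The P29 control was thus the only library in which THBS2 reads outnumbered THBS1 reads by a wide margin, and the run 1 injured cord at P28+24h was the only other one with more THBS2 than THBS1 reads. At P7 the mean ratio changed by 0.26 from control to injured (1.41 to 1.68), with a p of 0.667 in a 2-sided exact permutation test, in which 2 against 2 libraries cannot give less than 0.333. This test takes no account of the run, by which the ratio differed more than by injury, and within runs the change was 0.23 in run 1 and 0.29 in run 2. Since reads were not divided by transcript length, the ratio says how the balance differed between libraries and not which gene had more transcripts.

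**Figure D3:**
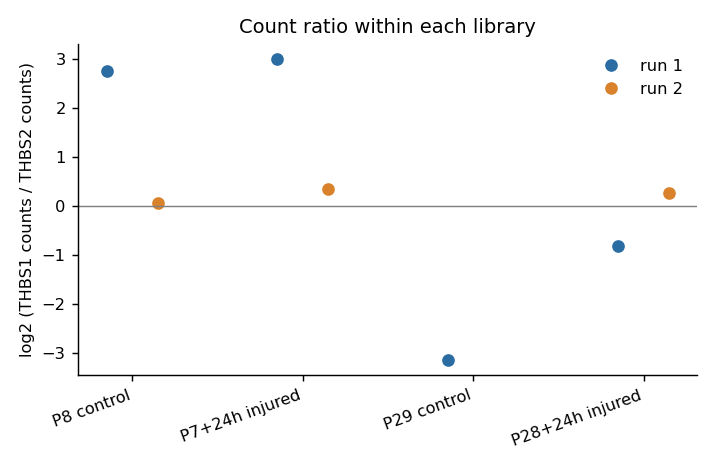
Log2 ratio of THBS1 to THBS2 counts in each of the 7 libraries, by group, with run 1 in blue and run 2 in orange; the line at 0 marks equal counts. The run 1 libraries spread from 3.00 at P7+24h to -3.14 in the P29 control, and the 3 run 2 libraries lie between 0.06 and 0.35.

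The difference between runs was as large for these genes as most of the changes with injury. THBS2 in run 2 divided by run 1 was 3.06 (exact 95% interval 1.14 to 10.3) in the P8 controls, 5.69 (2.06 to 21.9) at P7+24h and 1.20 (0.765 to 1.92) at P28+24h. THBS1 gave 0.47 (0.267 to 0.816), 0.907 (0.572 to 1.46) and 2.53 (1.47 to 4.61). THBS2 was thus higher in run 2 throughout, and THBS1 had no common direction. Among all genes the SD of the log2 change from run 1 to run 2 was 0.78 in the P8 controls, 0.81 at P7+24h and 0.98 at P28+24h, against 0.41 and 0.35 between injured and control cords at P7+24h in runs 1 and 2.

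The rest of the pathway could be read only in small part, because the count table carries identifiers without names and symbols were available only for genes that the study lists as changed. Of the 5 thrombospondin genes, THBS3, THBS4 and COMP had no identifier and are not analysed here. The same holds for 18 of 19 receptors, CD36, CD47, LRP1 and the synaptic receptor gene CACNA2D1 among them, and for all 19 immediate early genes. The lists of receptors, TGF-beta genes, matricellular proteins, proteins with thrombospondin type 1 repeats, matrix proteases and VEGF signalling gave 12 further genes, all of them on the study's P28 list, so their P28 values are descriptive. At P7+24h, 10 of the 12 were open to a test and 0 of 10 were called, with or without the run block, in edgeR's quasi-likelihood test (smallest adjusted p of 1 in each fit). Of all tested genes 0% were called without the block and 0.0148% with it, so 0 of 10 says little about these genes. Their median log2 change with the block was 0.05, and that of all tested genes was 0.00451. SPP1 and TIMP1 were on the study's P7 list and were left out of this count.

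Among receptors and ligands, ITGA4, the alpha subunit of an integrin that binds thrombospondins, was counted 0 times at P8 in run 1 and 6 times in run 2, and 0 and 9 times at P7+24h. There were 8 reads in the P29 control and 0 and 22 at P28+24h. All run 1 libraries except the P29 control were thus at 0, and no fold is given. TGFB3, a TGF-beta ligand, had 138 and 123 counts at P8 and 121 and 102 at P7+24h. At P29 the control had 85, and P28+24h had 168 and 155, with a log2 change from the control of 1.27 in run 1 and 0.04 with the run 2 injured library. KDR, the main VEGF receptor of endothelium, had 478 reads in the single P29 control against 222 and 567 at P28+24h, log2 changes of -0.81 and -0.58. In KDR as in THBS2, the P29 control (137 CPM) was the highest library, the P28+24h injured cords (78.3 and 91.8 CPM) came next and the P8 and P7+24h libraries (26.8 to 36.3 CPM) were lowest.

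Of the 45 proteins with thrombospondin type 1 repeats, the module that THBS1 and THBS2 share with many secreted proteins, 5 could be read. At P7+24h their blocked log2 changes lay between -0.06 and 0.65, and 0 of the 5 were called, where 0.0148% of all tested genes were called with the block. At P28+24h in run 1, 3 were higher than the control and 2 lower. ADAMTS10, a secreted metalloprotease, went from 110 counts in the control to 225 and 254, with log2 changes after scaling of 1.32 and 0.38. CFP, the complement regulator properdin, went from 39 to 103 and 88, with changes of 1.66 and 0.34. PAPLN, the proteoglycan-like protein papilin, was counted 0 times in the P29 control, 16 and 21 times at P28+24h, and 15 and 16 times at P8 without injury. The axon guidance gene SEMA5A went from 58 reads to 23 and 228, with a log2 change of -1 in run 1 and 1.13 with the run 2 library. ADAMTSL1, a related protein without the protease, went from 182 reads to 96 and 308, with changes of -0.62 and -0.07. The 3 higher genes were higher with either injured library, and of the 2 lower ones SEMA5A was higher than the control in the run 2 injured library.

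The other matricellular genes were TNR, a tenascin of perineuronal nets, and SPP1, osteopontin. SPP1 went from 11 and 14 reads at P8 to 85 and 77 at P7+24h, or 2.72 and 2.30 CPM to 22.3 and 11.5 CPM. It went from 31 reads at P29 to 161 and 278 at P28+24h, or 8.90 CPM to 56.8 and 45.0 CPM. Its injured libraries were thus above the control at either age, where THBS1 and THBS2 overlapped at P7. TNR went from 135 reads at P29 to 61 and 638 at P28+24h, a log2 change of -0.84 in run 1 and 1.41 with the run 2 library. Among proteases and inhibitors, TIMP1 had log2 changes of 1.97 and 1.31 at P28+24h with the run 1 and run 2 injured libraries, and the membrane-bound protease gene MMP15 of -1.50 and 0.61.

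**Figure D4:**
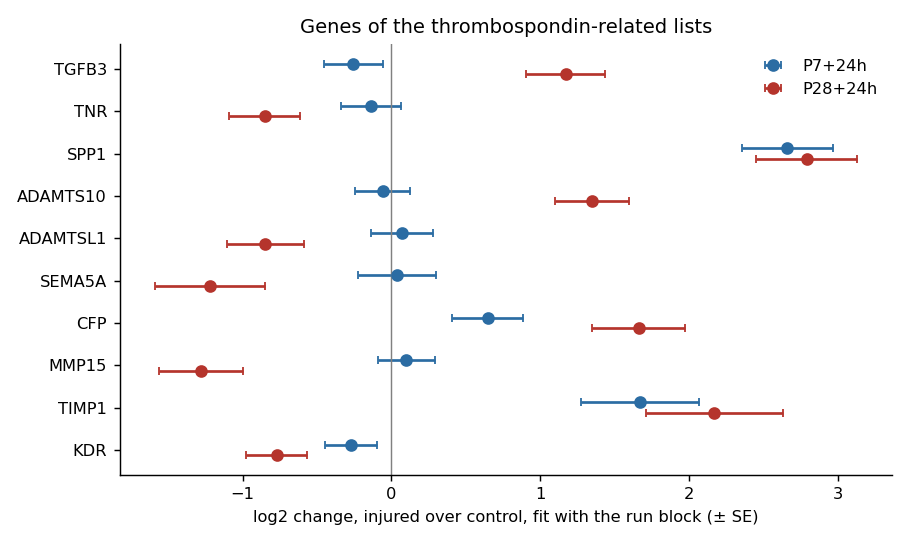
Log2 change from control to injured cord in the fit with the run block, at P7+24h (blue) and P28+24h (red), for 10 of the 12 genes of the thrombospondin-related lists; bars are standard errors, and ITGA4 and PAPLN are left out because libraries were at 0. At P7+24h most points lie near 0, with SPP1 and TIMP1, which are on the study's P7 list, to the right; the P28 values come from genes listed for that contrast.

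Markers of other cells could be read only where the study lists them as changed. Those used here are on its P28 list, except ITGB2. Their P28 differences were thus selected by that contrast, as those of THBS1 were, and are descriptive. Of the platelet markers 2 of 10 could be read, and their summed level was 29.0 CPM in the P29 control and 59.6 and 73.2 CPM at P28+24h. ITGA2B, the platelet integrin alpha subunit, went from 8 reads to 33 and 31, or 2.30 CPM to 11.6 and 5.02 CPM. VWF went from 93 reads to 136 and 421, or 26.7 CPM to 48.0 and 68.2 CPM, and made up most of the sum in these libraries. The 4 of 6 erythroid markers at hand, HBZ and GATA1 among them, summed to 190 CPM in the control and 432 and 133 CPM after injury, and the 3 of 7 myeloid markers, ITGB2 among them, to 20.4 CPM and then 83.2 and 72.9 CPM. At P7+24h the platelet sum was 23.6 and 17.0 CPM against 29.2 and 11.8 CPM in the P8 controls, the erythroid sum 160 and 47.3 CPM against 247 and 47.1 CPM, and the myeloid sum 18.1 and 27.8 CPM against 7.42 and 8.89 CPM. The myeloid markers CSF1R and ITGB2 are on the study's P7 list, so the higher myeloid sum at P7+24h was in part selected by that contrast. The part of these cells in the THBS1 values was not tested.

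The libraries with low THBS2 among the older animals also had lower oligodendrocyte markers. The sum of MBP and MAG was 28300 CPM in the P29 control and 17800 and 23600 CPM at P28+24h. MBP and MAG, like THBS2, are on the study's P28 list and were set against the same single P29 control. Their lower levels beside lower THBS2 were thus selected by that contrast and cannot show a link to oligodendrocytes. The fibroblast marker OGN, 1 of 9 on its list with an identifier, had 8.90 CPM in the control and 26.8 and 8.26 CPM after injury, the smooth muscle marker TAGLN, 1 of 6, had 13.2 CPM and then 39.1 and 17.0 CPM, and the muscle actin ACTA1, 1 of 7 muscle markers, had 0.861 CPM and then 9.52 and 17.2 CPM. None of these 3 was clearly lower in both injured libraries as THBS2 was. The endothelial marker KDR, 1 of 7 on its list, was lower in both, with 137 CPM and then 78.3 and 91.8 CPM. The part of any of these cells in the THBS2 values was not tested, and markers listed for this contrast cannot tell it.

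Over the 7 libraries the log2 levels of THBS1 and THBS2 had a Pearson correlation of -0.34 with each other, given as a description, as are those below. Of the 617 genes with a symbol, all from the study's lists of changed genes, those with the profile most like THBS1 were CSF3R, the receptor of granulocyte colony-stimulating factor (r = 0.92), ZZEF1 (0.89), the leukocyte phosphoinositide kinase gene PIK3CD (0.87), F13A1, the A subunit of coagulation factor XIII (0.83), and PPFIA4 (0.80). CSF3R had 3 reads at P29 against 6 and 46 at P28+24h, and like THBS1 was at its highest in the run 2 injured cord. Most like THBS2 were C1QTNF3 (0.97), the focal adhesion gene TNS3, the kinase gene AATK, the mitochondrial fatty acid oxidation gene HADHA and the potassium channel gene KCNJ12 (0.96 each). Few profiles were as close to THBS1 as many were to THBS2, as 4 of the 13533 other tested genes had a correlation above 0.9 with THBS1 and 443 with THBS2. All libraries share the age and run differences, and the genes with a symbol share the P28 contrast, which contributes to these values.

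**Figure D5:**
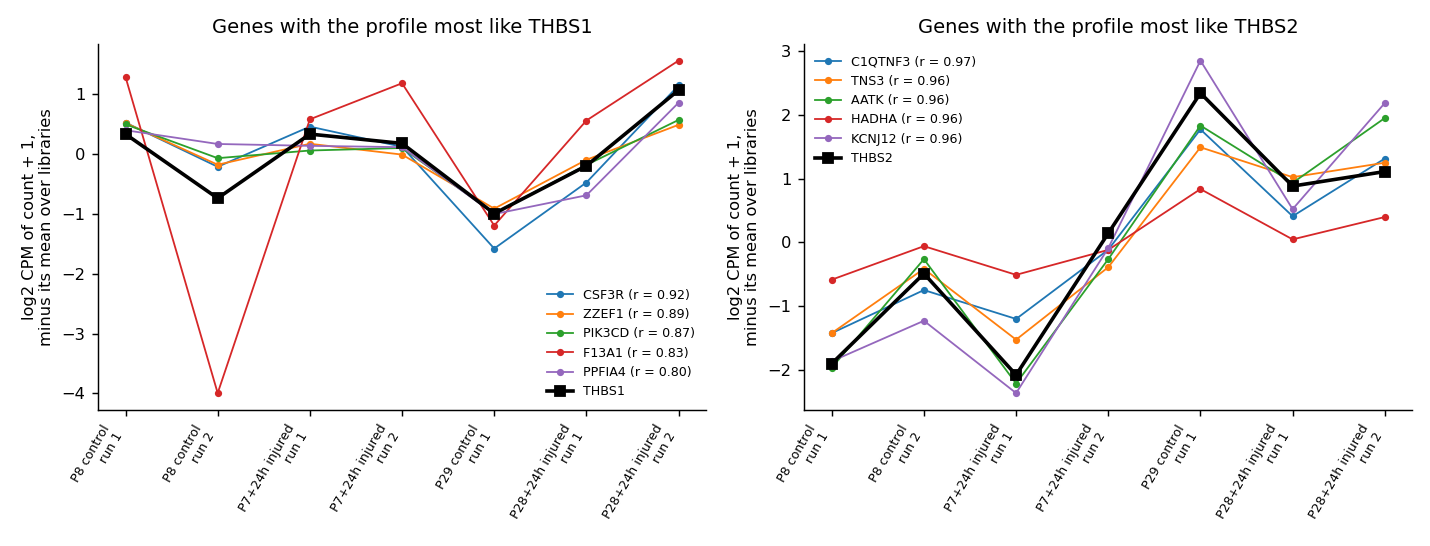
Log2 of count plus 1, scaled as CPM, minus its mean over libraries, in the 7 libraries for THBS1 (left, black) and THBS2 (right, black) and the 5 genes with a symbol whose profile was most like each; r is Pearson's correlation of log2 CPM. THBS1 and its nearest genes are low in the P29 control, and THBS2 is highest there, as are 4 of its 5 nearest genes, AATK being higher in the run 2 library at P28+24h.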

How the data were processed

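Single-end reads of 100 bp were trimmed by the authors and aligned by Bowtie2 against the opossum genome from Ensembl release 69, and HTSeq, in union mode, then counted them over nuclear genes. The deposited values are these raw counts per gene, unscaled; use of strand is not given in the sources used here. Reads shared by near-identical genes could have been lost or split.

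After filterByExpr with a minimum count of 10, 13534 genes were left, which were scaled by TMM and fitted over the 4 groups with edgeR 4.0.16 (R 4.3.3, limma 3.58.1), using the quasi-likelihood test and Benjamini-Hochberg adjustment, with 3 residual degrees of freedom, or 2 with the replicate number as a block. The number marks the sequencing run in the labels. Run changes correlated across genes between groups (0.80, 0.70 and 0.74). Single-library log2 changes used a prior count of 2. Alternatives included DESeq2 1.42.0. The fits were first run on simulated counts in which 200 genes had been changed, which checks the code and not the error rate in these data.

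The members and gene lists were chosen with earlier results of these data known. Symbols came from the study's lists of changed genes, which pair 28 of 219 list symbols with an identifier, so no list reached 80% and no list was tested. Named list genes were those called in any comparison in either fit, or else the most abundant, and the 5 genes most correlated with each member. The P28+24h comparison was not tested for the members. Some further results are not reported here. The RefSeq table at hand holds no Ensembl identifiers, so no sequence, position or length is given.

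Replicates were collected separately, and p-values measure the spread between these pooled libraries.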

Additional observations from a re-analysis of the deposited data

How the results depend on the processing

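Neither thrombospondin was called at P7+24h under any alternative run. Leaving out 1 library at a time, without a block, moved its log2 change there between -0.071 (without run 2 of the P8 controls) and 1.01 (without run 1) for THBS1, and between -1.28 (without run 2 of P7+24h) and 1.55 (without run 2 of the P8 controls) for THBS2, which was -0.043 without run 1 of the P8 controls; such fits set unequal numbers of runs against each other. At P28+24h THBS1 lay between 0.77 (without its run 2 library) and 2.16, and THBS2 between -1.55 and -1.24, or at -1.98 with the replicate block by the quasi-likelihood and the likelihood ratio test. The THBS2 change from P8 to P29 control lay between 2.87 and 4.46 with a library left out. The change of the log2 ratio of THBS1 to THBS2 at P7+24h lay between -1.09 and 1.61, was -1.06 without run 1 of P7+24h, and was 0.23 with 1 count added. The block changed no call of the members at P7+24h, the comparison in which they were tested. Numbers of genes called depended on the test. At P7+24h they went from 0 to 2 with the block, 36 with the block and a likelihood ratio test, 4 by edgeR's exact test and 2 by DESeq2, and at P28+24h from 0 to 102, 493 and 3 by the first 3 of these. From P8 to P29 control they went from 242 to 2893, 3242, 943 and 855, to 138 with library size only, and to between 0 and 139 with a library left out, 0 without either P8 control. With 4 to 97 counts per library, depth limits each single-library ratio, and the P29 control could not be left out.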
